A study of Homo sapiens with 12 samples.

Results

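The genes described here are 9 enzymes of glycerolipid synthesis (GPAT3, GPAT4, GPAM, AGPAT1, AGPAT2, AGPAT5, LPIN1, LPIN2 and DGAT1) and the lipid droplet protein PLIN2, measured in 22Rv1 cells treated with an inhibitor of the transcription factor ONECUT2. All probe sets that the platform annotation pairs with these symbols were taken, with AGPAT9 read as GPAT3 and AGPAT6 as GPAT4. That gave 20 probe sets for 10 of the 19775 genes named on the array, and all 10 genes passed the filter on low signal, as did 12635 genes in all. The members were chosen by their place in the pathway with results of these same arrays known, among them the 16 h value of GPAT3 and the 4 h value of LPIN1. Their changes are therefore given as descriptions, without p-values.

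22Rv1 is an established human prostate carcinoma cell line, grown here in RPMI-1640 medium with fetal bovine serum. The 12 arrays form 4 groups of 3: vehicle, and 4 h, 6 h or 16 h with the small-molecule inhibitor. Labels give the vehicle arrays no time and the compound no dose. A code element, which the labels do not explain, is in the titles of all arrays except those at 16 h, so that time and whatever this element stands for cannot be told apart. Nothing in the labels says that the 3 arrays of a group came from separate cultures. Any p-value then reflects how far these arrays differ among themselves, a spread that may be technical.

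Triacylglycerol and the phospholipids of membranes share their first steps. Glycerol-3-phosphate acyltransferases add a first fatty acid to glycerol 3-phosphate, acylglycerolphosphate acyltransferases add the next and yield phosphatidate, and lipins remove the phosphate to give diacylglycerol. Diacylglycerol is either turned into triacylglycerol, by DGAT1 or DGAT2, or used to build phosphatidylcholine and phosphatidylethanolamine. Triacylglycerol is stored in lipid droplets, whose surface carries perilipins such as PLIN2.

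GPAT3 had by far the widest change among the 10 genes: its signal at 16 h was 19.6-fold that of vehicle, rank 3 among the rises of the 12635 genes tested. GPAT4, AGPAT5 and LPIN2 rose by 1.21- to 1.39-fold at 16 h, and AGPAT1 fell 1.48-fold. LPIN1 had another time course, 1.29-fold above vehicle at 4 h and overlapping vehicle at 16 h. GPAM, AGPAT2, DGAT1 and PLIN2 did not pass the threshold against vehicle at any time, by the probe set of highest mean signal for each. A gene is said to have risen or fallen where its adjusted p was below 0.05 in a limma fit over all 12635 genes. For the members this is a label only. Among all genes tested, 18.3% did not overlap vehicle at 4 h, 14.4% at 6 h and 51.5% at 16 h. Groups of arrays that lie apart are therefore given below as descriptions.

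**Figure D1:**
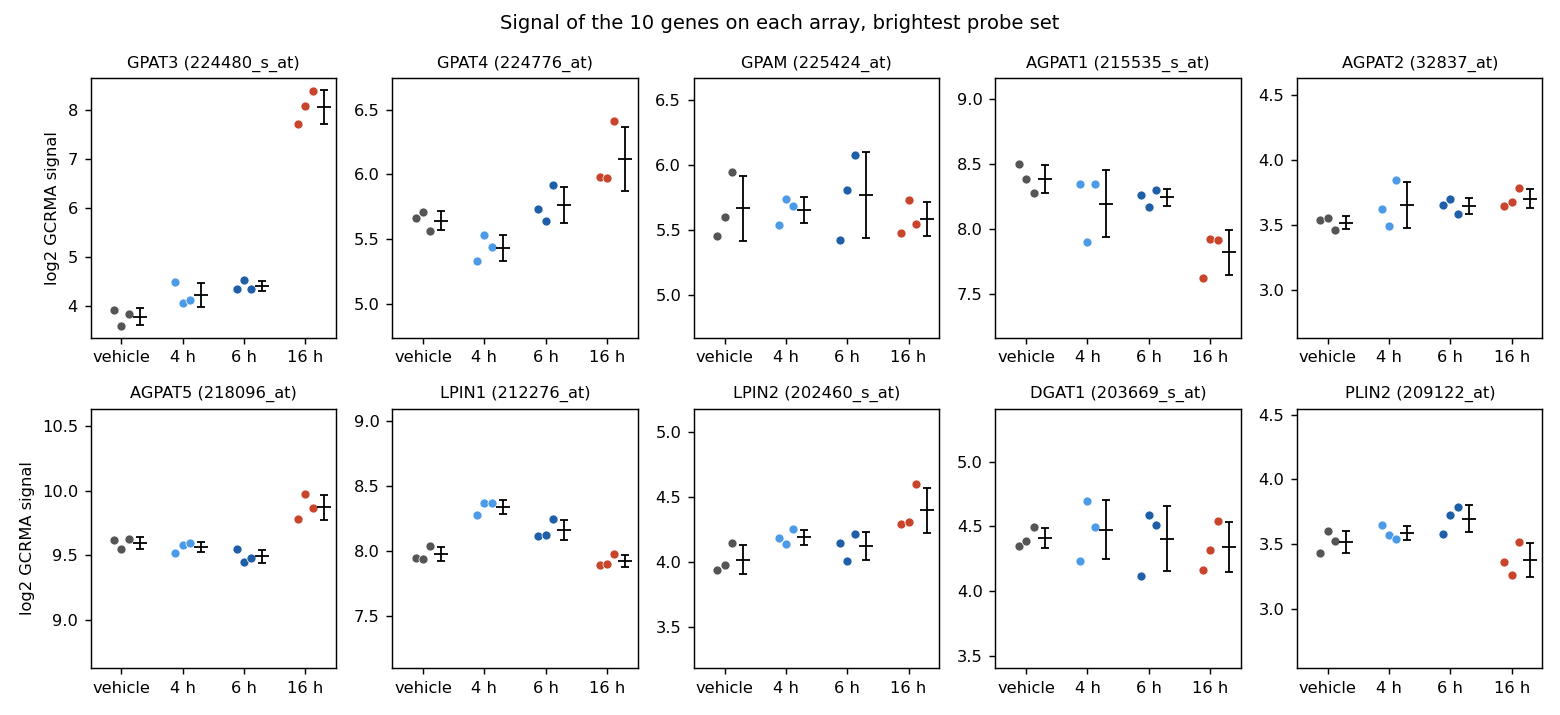
Log2 GCRMA signal of the probe set used for each of the 10 genes (vertical axis) in the vehicle, 4 h, 6 h and 16 h groups (horizontal axis). Points are arrays, and bars give the mean ± SD of 3 arrays; each panel spans 2 log2 units except that of GPAT3, whose 16 h arrays lie between 7.72 and 8.40 against 3.59 to 3.91 on the vehicle arrays.

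Several measures of the arrays differed between vehicle and 16 h, and their part in the 16 h results was not tested. The control probe set for the 5' end of ACTB was lower by 1.38 on the log2 scale (10.41 ± 0.04 on vehicle and 9.03 ± 0.13 on 16 h arrays; SD, n = 3), and the log2 difference between its 3' and 5' control probe sets went from 2.80 ± 0.07 to 4.09 ± 0.09 (SD, n = 3). For GAPDH the same difference was -0.46 on vehicle and -0.43 on 16 h arrays. The 18S ribosomal RNA control was 9.62 ± 0.29 on vehicle and 11.06 ± 0.10 on 16 h arrays (SD, n = 3). It was 8.98 ± 0.14 at 4 h and 8.64 ± 0.19 at 6 h, below vehicle, and its part in comparisons that use these arrays was not tested. The 6 markers of prostate epithelium measured here, FOXA1, HOXB13, KLK3, KRT8, KRT18 and EPCAM, were above the background controls on all 12 arrays. The mean log2 signal of these 6 genes was 8.52 to 8.58 on vehicle and 8.25 to 8.42 on 16 h arrays, with HOXB13 at 7.46 and 6.40. Of 6 adipocyte markers, 5 were above background on no array, the exception being CIDEC, and the list averaged 1.67 to 1.76 on vehicle and 1.87 to 1.90 on 16 h arrays. The fibroblast list averaged 2.83 to 2.99 and 3.27 to 3.32, with 3 of 6 genes above background on all 12 arrays and COL1A2 on none. Within it COL1A1 averaged 3.77 on vehicle and 5.82 on 16 h arrays, LUM 4.10 and 5.35, and DCN 3.44 and 2.85. The leukocyte list averaged 1.73 to 1.83 and 1.53 to 1.74, with 0 of 5 genes above background on all arrays. In such bulk samples, fewer cells of a type and less RNA per cell cannot be told apart.

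GPAT3, an enzyme of the endoplasmic reticulum that carries out the first acylation, is measured by a single probe set, 224480_s_at, of a class that can also bind transcripts of related genes. Its log2 signal was 3.91, 3.59 and 3.84 on the vehicle arrays, where the highest background control averaged 2.14. The size of the fold at 16 h therefore rests on a low vehicle signal. At 4 h it was 4.50, 4.05 and 4.13, and at 6 h 4.35, 4.53 and 4.35. At 16 h it reached 7.72, 8.09 and 8.40. All inhibitor arrays lay above the highest vehicle array, by a small margin at 4 h and 6 h and by a wide one at 16 h. Differences from vehicle were 0.45 at 4 h, 0.63 at 6 h and 4.29 at 16 h on the log2 scale (SE 0.16 each), and those at 4 h and 6 h did not pass the threshold. From 6 h to 16 h, GPAT3 rose by 3.66 (SE 0.16), or 12.7-fold, a comparison that uses no vehicle array. By its changes from vehicle at the 3 times, the closest genes among 12625 others were FOS, LAMP3 and GEM, at Euclidean distances of 0.42, 0.48 and 0.77 log2 units. For FOS, a subunit of the AP-1 transcription factor, the changes were 0.66 at 4 h, 0.31 at 6 h and 4.13 at 16 h. These distances compare changes that all share the vehicle arrays.

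GPAT4, the other acyltransferase of this step in the endoplasmic reticulum, rose modestly at 16 h. Vehicle arrays read 5.66, 5.71 and 5.56 on the log2 scale, 4 h arrays 5.33, 5.53 and 5.44, 6 h arrays 5.73, 5.64 and 5.92, and 16 h arrays 5.98, 5.97 and 6.41. The 4 h arrays were all below vehicle and the 16 h arrays all above it, whereas the 6 h arrays overlapped vehicle. GPAT4 was 0.48 (SE 0.12) above vehicle at 16 h, or 1.39-fold, after differences of -0.21 at 4 h and 0.12 at 6 h that did not pass the threshold. Its other probe sets differed less: 229577_at was 0.06 above vehicle at 16 h, and 236743_at was at or below the background controls on all 12 arrays. With probe sets averaged per gene, the difference was 0.18 and did not pass the threshold.

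GPAM, the mitochondrial acyltransferase of this first step, gave different pictures with its pair of probe sets. By 225424_at, the one used for the gene, the signal was 5.45, 5.60 and 5.94 on vehicle arrays, 5.54, 5.74 and 5.69 at 4 h, 5.42, 5.81 and 6.08 at 6 h, and 5.48, 5.73 and 5.54 at 16 h. These groups overlapped at all 3 times, with log2 differences from vehicle of -0.01, 0.10 and -0.08 (SE 0.16 each). By 225420_at, it was 6.53, 5.76 and 6.42 on vehicle arrays, 5.65, 5.52 and 5.53 at 4 h, 5.66, 5.32 and 5.30 at 6 h, and 5.43, 5.23 and 5.44 at 16 h. All 9 inhibitor arrays were then below the lowest vehicle array, by log2 differences of -0.67, -0.82 and -0.87 at 4 h, 6 h and 16 h (SE 0.17 each), and vehicle replicate 2 was the vehicle array nearest to them. Both probe sets were above the background controls on all 12 arrays. On vehicle arrays 225420_at was the brighter, with a mean of 6.24 against 5.66, and in each inhibitor group 225424_at was. The choice of 225424_at for the gene, by the mean over all arrays, thus depended on the inhibitor arrays. When the probe sets of a gene were averaged, GPAM was 0.48 lower at 16 h and passed the threshold.

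**Figure D2:**
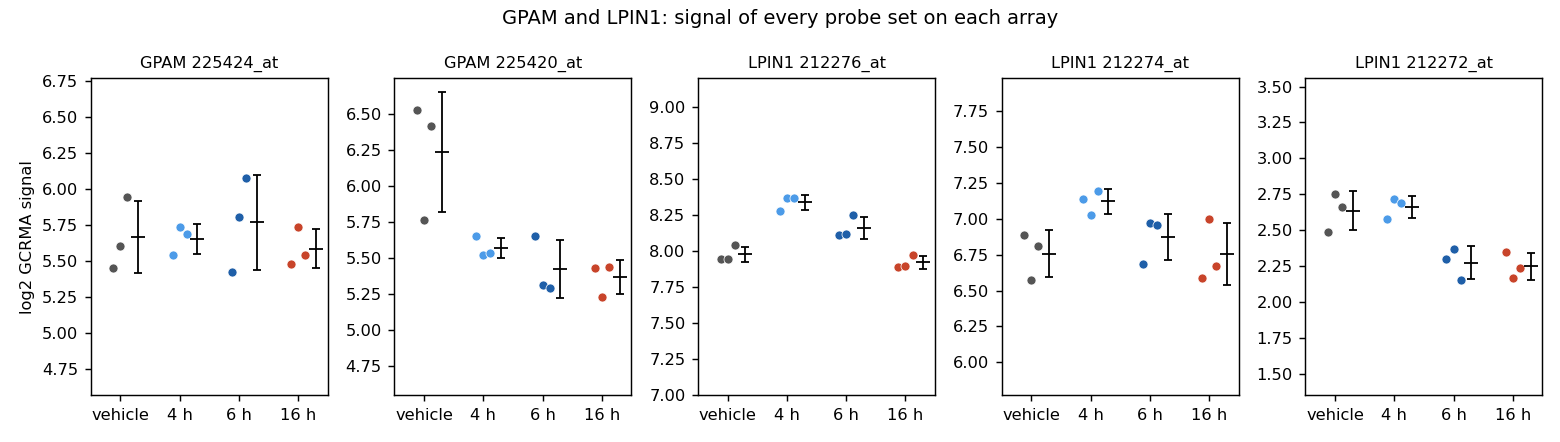
Log2 GCRMA signal on each array (vertical axis, 2.2 log2 units in every panel) for all probe sets of GPAM and LPIN1 in the vehicle, 4 h, 6 h and 16 h groups. Points are arrays and bars the mean ± SD of 3 arrays; the GPAM probe set 225420_at is lower on all inhibitor arrays while 225424_at overlaps vehicle, and 2 of the 3 LPIN1 probe sets are highest at 4 h.

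AGPAT1, an acyltransferase of the endoplasmic reticulum that makes phosphatidate from lysophosphatidate, was the member that fell at 16 h. By 215535_s_at its log2 signal was 8.50, 8.38 and 8.28 on vehicle arrays, 8.34, 7.90 and 8.34 at 4 h, 8.26, 8.17 and 8.30 at 6 h, and 7.62, 7.92 and 7.92 at 16 h. The 16 h arrays lay below all vehicle arrays, and the 4 h and 6 h arrays overlapped them. The log2 difference was -0.57 (SE 0.12) at 16 h. The other probe set, 32836_at, went the same way, from 7.88, 7.70 and 7.51 on vehicle to 6.96, 6.68 and 6.95 at 16 h, a difference of -0.83 (SE 0.11). Both probe sets thus separated the 16 h arrays from vehicle, a separation found for 51.5% of all genes tested.

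AGPAT5, an acyltransferase of the same step found at mitochondria, changed the other way. Its log2 signal was 9.62, 9.55 and 9.62 on vehicle arrays, 9.52, 9.58 and 9.60 at 4 h, 9.55, 9.45 and 9.48 at 6 h, and 9.78, 9.97 and 9.87 at 16 h. The 16 h arrays lay above all others. AGPAT5 was 0.28 (SE 0.06) above vehicle at 16 h, or 1.21-fold. Its other probe set, 232007_at, gave 0.29 (SE 0.11) at 16 h, with arrays that overlapped vehicle. At 4 h 232007_at was 0.18 above vehicle without overlap, where the probe set used for the gene differed by -0.03. With each array centred on its median, the 16 h difference of AGPAT5 no longer passed the threshold.

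AGPAT2, the acyltransferase whose loss in people causes congenital lipodystrophy, had log2 differences of 0.14, 0.13 and 0.19 (SE 0.09 each) at 4 h, 6 h and 16 h, none past the threshold. Its log2 signal was 3.46 to 3.56 on vehicle and 3.65 to 3.79 on 16 h arrays, groups that did not overlap. A second probe set, 210678_s_at, was above the background controls on 6 of the 12 arrays. AGPAT2 passed the threshold at 16 h, as a rise, without 4 h replicate 3 and with probe sets averaged per gene.

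LPIN1, a phosphatidate phosphatase that also acts as a transcriptional coactivator, was the member with an early rise. By 212276_at its log2 signal was 7.94, 7.94 and 8.04 on vehicle arrays, 8.27, 8.37 and 8.37 at 4 h, 8.11, 8.12 and 8.25 at 6 h, and 7.89, 7.90 and 7.97 at 16 h. The 4 h arrays were the highest, the 6 h arrays lay between them and vehicle, and the 16 h arrays overlapped vehicle. The log2 differences were 0.36, 0.19 and -0.05 (SE 0.06 each), of which the one at 4 h passed the threshold. From 6 h to 16 h LPIN1 fell by 0.24.

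A second LPIN1 probe set, 212274_at, also differed by 0.36 (SE 0.12) at 4 h, with arrays at 7.14, 7.03 and 7.19 against 6.89, 6.57 and 6.81 on vehicle. At 6 h 212274_at differed by 0.11 (SE 0.12) and overlapped vehicle. The remaining and dimmest one, 212272_at, was 0.03 above vehicle at 4 h. It lay below vehicle without overlap at 6 h and 16 h (log2 differences -0.36 and -0.38, SE 0.10 each). The 6 h rise of 0.19 without overlap was thus seen only by the probe set used for the gene, and 212272_at had the opposite sign. LPIN1 did not pass at 4 h without any 1 of the 3 vehicle replicates, any 1 of the 3 replicates at 4 h, or 6 h replicate 2. Its 4 h difference was between 0.35 and 0.39 in these fits. With probe sets averaged per gene, LPIN1 passed the threshold at 16 h as a fall, with a log2 difference of -0.15, and did not pass at 4 h. The genes nearest to LPIN1 in their changes at the 3 times were HELLS, BBOF1 and NTS, at distances of 0.035, 0.043 and 0.053 log2 units.

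LPIN2, a phosphatase of the same family, rose at 16 h by 0.38 (SE 0.09), or 1.30-fold. Its log2 signal was 3.94, 3.98 and 4.14 on vehicle arrays, 4.19, 4.14 and 4.25 at 4 h, 4.14, 4.01 and 4.22 at 6 h, and 4.29, 4.31 and 4.60 at 16 h. The 16 h arrays lay above all vehicle arrays. Its other probe set, 202459_s_at, had the opposite sign, -0.23 (SE 0.12) at 16 h, and the mean of both gave 0.07, which did not pass the threshold.

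DGAT1, which makes triacylglycerol from diacylglycerol, showed no difference beyond the spread of the arrays. Its log2 signal was 4.35, 4.39 and 4.50 on vehicle arrays and 4.16, 4.32 and 4.54 at 16 h, with differences from vehicle of 0.07, -0.01 and -0.07 (SE 0.14 each). The groups overlapped at all 3 times.

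PLIN2, the droplet coat protein also called adipophilin, was 3.43, 3.60 and 3.52 on vehicle arrays, 3.65, 3.57 and 3.54 at 4 h, 3.58, 3.73 and 3.78 at 6 h, and 3.36, 3.26 and 3.52 at 16 h. Each inhibitor group overlapped vehicle, with log2 differences of 0.07, 0.18 and -0.14 (SE 0.08 each). The 16 h arrays lay below the 6 h arrays, and the fall of 0.32 between these times passed the threshold, but not with probe sets averaged per gene. With quantile normalisation or median centring, PLIN2 also passed the threshold against vehicle at 16 h, as a fall. The second probe set, 215895_x_at, differed from vehicle by 0.02, -0.08 and -0.05. The changes most like those of PLIN2 were of GALNTL6, EIF3K and SLC67A1-AS, at distances of 0.015, 0.027 and 0.028 log2 units, with values as small as those of PLIN2.

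**Figure D3:**
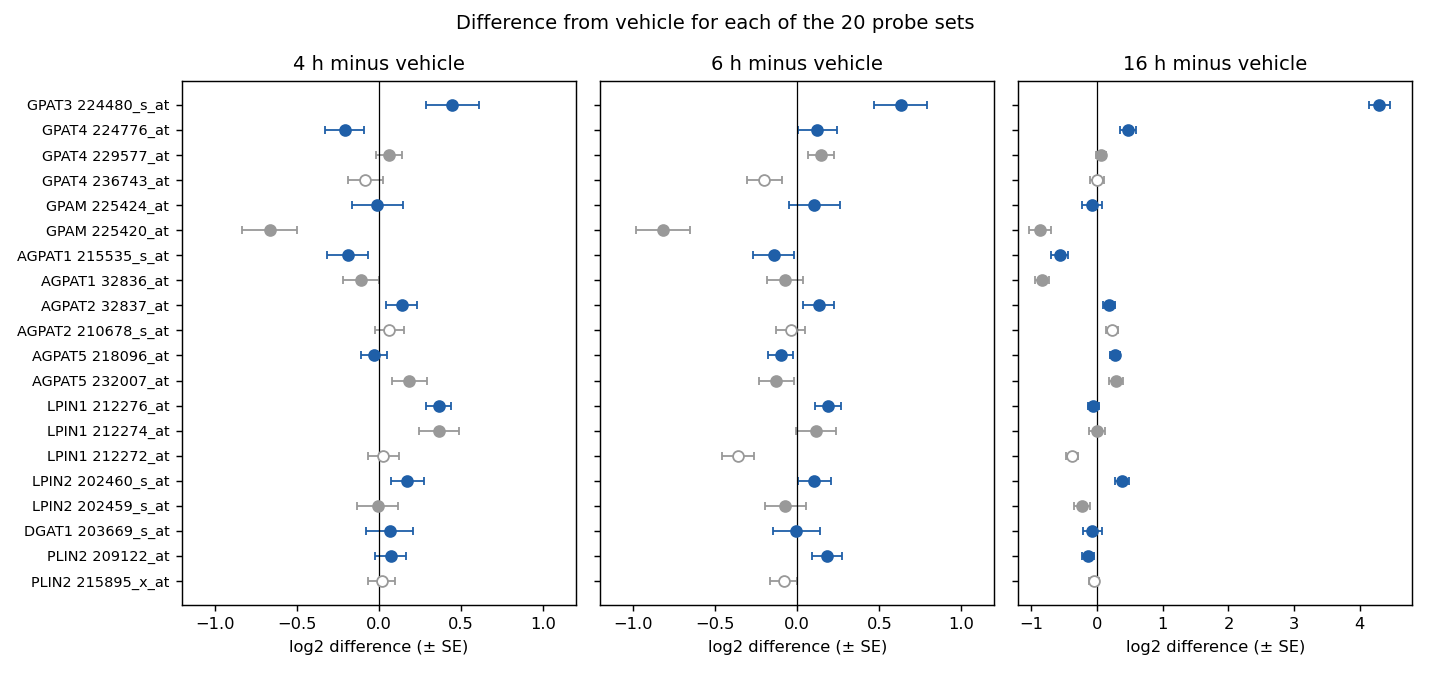
Log2 difference from vehicle (horizontal axis) at 4 h, 6 h and 16 h for all 20 probe sets of the 10 genes, with bars of ± 1 SE from a fit to all probe sets and a wider axis for 16 h. Blue points are the probe set used for a gene, grey points the others, and open points probe sets not above the background controls on all 12 arrays; GPAT3 stands at 4.29 at 16 h, and the probe sets of GPAM and LPIN2 lie on different sides or at different distances from 0.

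Of the 10 members, 1 passed the threshold at 4 h (LPIN1, a rise), where 0.459% of all genes tested did in either direction. At 6 h it was 0 of 10, where 0.0317% of all genes did; by the same limma fit, 2 members and 1039 of all genes had an unadjusted p below 0.05. At 16 h 4 members rose (GPAT3, GPAT4, AGPAT5 and LPIN2), beside 26% of all genes, and AGPAT1 fell, beside 16.8%, so that 5 of 10 passed beside 42.8%. Since the members were chosen with these comparisons known, nothing is read from these shares. The median log2 difference of the members was 0.07, 0.11 and 0.07 at 4 h, 6 h and 16 h, against 0.00, 0.01 and 0.05 over all genes tested. Between 4 h and 6 h, 0 of 10 members passed, beside 0.095% of all genes (2 members and 1187 genes at an unadjusted p below 0.05). Between 6 h and 16 h, 4 members rose (GPAT3, GPAT4, AGPAT5 and LPIN2) and 3 fell (AGPAT1, LPIN1 and PLIN2), beside 42.7% of all genes. In this comparison GPAT4 and LPIN2 no longer passed with either rescaling of the arrays, with the 2 compared groups alone, or without 6 h replicate 1 or 2 or 16 h replicate 3, and AGPAT1 without 16 h replicate 1. LPIN2 alone was also lost without the filter on low signal and with a trended, robust prior in the limma fit. With probe sets averaged per gene, 3 members passed between 6 h and 16 h (GPAT3, AGPAT5 and AGPAT1). The split at 16 h changed with scaling: median centring gave 3 rises and 2 falls, and quantile normalisation 4 rises and 2 falls. Averaging probe sets per gene gave 3 rises (GPAT3, AGPAT2 and AGPAT5) and 3 falls (AGPAT1, GPAM and LPIN1).

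RefSeq promoter windows of build GRCh38.p14 were available for 7 of the members, 15 windows in all, and were cut to the 250 bases before each start. Those of GPAT3, LPIN1 and AGPAT1 are shown because these genes had the widest change, the early rise and the fall. They are written 5′ to 3′ on the strand of the gene, with any match to 7 searched motifs in capitals. The GPAT3 window, on the plus strand at chr4:83535857-83536106, starts from a transcript that begins 520 bases inside the gene record. The LPIN1 window is on the plus strand at chr2:11677294-11677543, and that of AGPAT1 on the minus strand at chr6:32178109-32178358.
GPAT3: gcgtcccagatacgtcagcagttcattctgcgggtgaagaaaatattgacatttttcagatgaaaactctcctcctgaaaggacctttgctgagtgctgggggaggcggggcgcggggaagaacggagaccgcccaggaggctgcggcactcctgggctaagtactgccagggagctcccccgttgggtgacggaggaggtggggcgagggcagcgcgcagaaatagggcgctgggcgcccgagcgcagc
LPIN1: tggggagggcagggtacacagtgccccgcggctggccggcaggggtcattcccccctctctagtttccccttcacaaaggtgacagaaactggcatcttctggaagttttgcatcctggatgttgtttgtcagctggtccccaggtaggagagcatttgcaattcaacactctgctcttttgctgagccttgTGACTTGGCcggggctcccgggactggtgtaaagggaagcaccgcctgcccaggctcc
AGPAT1: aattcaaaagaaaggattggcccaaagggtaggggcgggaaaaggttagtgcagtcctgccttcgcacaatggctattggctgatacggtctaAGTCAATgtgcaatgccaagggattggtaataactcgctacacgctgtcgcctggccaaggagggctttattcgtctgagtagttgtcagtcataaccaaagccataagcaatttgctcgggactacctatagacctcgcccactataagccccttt

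The motifs, searched on both strands, were the antioxidant response element core TGACNNNGC, the ATF4 composite core TGATGNAA, the cyclic AMP response element TGACGTCA, the AP-1 site TGANTCA, the E-box CACGTG, the sterol regulatory element core TCACNCCAC and the ONECUT core ATTGANT. None of these letters occurs in the GPAT3 window. In the LPIN1 window, TGACTTGGC matches the antioxidant response element core 58 bases before the start; 10.9% of all 35116 windows hold such a match. The AGPAT1 window holds the ONECUT core on its other strand, as AGTCAAT, 157 bases before the start, and 6.68% of all windows hold one. Among the other windows of the members, AGPAT1 had the ONECUT core in another window and the AP-1 site in one more, and LPIN2 and PLIN2 each had an E-box. The AP-1 site is found in 6.57% of all windows and the E-box in 6.34%, while the ATF4 core (3.14%), the cyclic AMP response element (1.65%) and the sterol core (0.883%) matched no window of the members. A match is a run of letters and not a measured binding site, and the absence of one says only that these letters are not in the window.

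The rest of the pathway was described by 6 lists of 104 genes outside the members, of which 94 had a probe set and 72 passed the filter on low signal. At 4 h, 1 of the 72 changed, beside 0.459% of all genes, and at 6 h none did, beside 0.0317%. At 16 h 15 rose, 17 fell and 40 did not pass the threshold, so that 32 of 72 changed, close to the 42.8% of all genes. At an unadjusted p below 0.05 the limma fit gave 8 of 72 at 4 h and 8 of 72 at 6 h. The counts over all 12635 genes were 1366 and 1039. The median log2 difference of the 72 genes at 16 h was 0.02, against 0.05 over all genes tested. Between 4 h and 6 h, 0 of 72 changed (7 at an unadjusted p below 0.05), beside 0.095% of all genes, and between 6 h and 16 h, 15 rose and 14 fell, beside 42.7% of all genes in either direction. The counts per list at 16 h stand beside 26% of all genes that rose and 16.8% that fell. All p-values below are from the limma fit with Benjamini-Hochberg adjustment over 12635 genes.

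**Figure D4:**
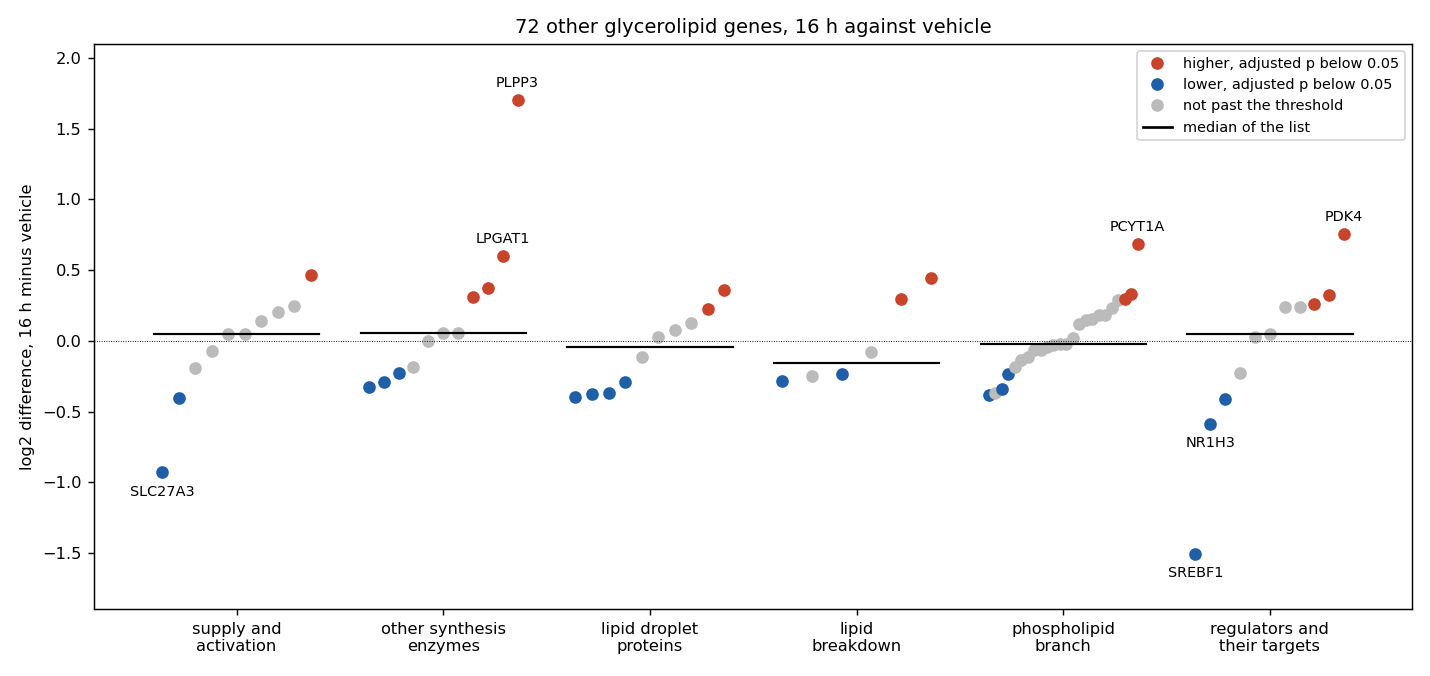
Log2 difference between 16 h and vehicle (vertical axis) for the 72 tested pathway genes outside the members, arranged by list on the horizontal axis, with points coloured by call and a line at the median of each list. Genes lie on both sides of 0 in all 6 lists; PLPP3 is highest at 1.70 and SREBF1 lowest at -1.51.

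The change at 4 h was in ANGPTL4, a secreted inhibitor of lipoprotein lipase and a target of PPAR receptors. It fell from 4.42, 4.17 and 4.43 on the log2 scale in vehicle to 3.52, 3.70 and 3.72 at 4 h, without overlap, a log2 difference of -0.70 (SE 0.11, adjusted p = 0.0189). At 6 h its arrays, 4.16, 4.17 and 4.45, overlapped vehicle, and at 16 h its log2 difference was -0.41 (SE 0.11, adjusted p = 0.00983). The call at 4 h was lost without vehicle replicate 1 (adjusted p = 0.0813) or 3 (0.0749), or without 4 h replicate 1 (0.0748), 2 (0.0604) or 3 (0.0526).

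Among the genes that supply fatty acyl-CoA and glycerol 3-phosphate, 1 of 10 rose and 2 fell at 16 h (list median 0.05). SLC27A3, a fatty acid transport protein with acyl-CoA synthetase activity, fell from 7.05, 6.87 and 6.90 on vehicle arrays to 5.98, 5.99 and 6.06 at 16 h, a log2 difference of -0.93 (SE 0.08, 1.91-fold, adjusted p = 3.02e-06). SLC27A5, the bile acyl-CoA synthetase, fell by 0.41 on the log2 scale (adjusted p = 0.00166). SLC27A2, a very long-chain acyl-CoA synthetase, rose by 0.46 (adjusted p = 0.0175), a call lost without vehicle replicate 1 (adjusted p = 0.075) or 16 h replicate 2 (0.0778) or 3 (0.0517), or where _s_at and _x_at probe sets were avoided (0.311). ACSL1, a long-chain acyl-CoA synthetase, differed by 0.25 (adjusted p = 0.147).

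Of 11 other acyltransferases and phosphatidate phosphatases, 4 rose and 3 fell at 16 h (list median 0.05). PLPP3, a membrane phosphatase of phosphatidate and lysophosphatidate, rose from 5.57, 5.72 and 5.64 to 6.99, 7.39 and 7.65, by 1.70 (SE 0.13, 3.26-fold, adjusted p = 1.84e-06). The brightest probe set decided this size, since the other PLPP3 probe sets differed by 0.35 and -0.01. LPGAT1, a lysophospholipid acyltransferase, rose by 0.60 (adjusted p = 1.21e-05), with 0.61 and -0.47 by its other probe sets. SOAT1, which esterifies cholesterol for droplets, fell by 0.33 on the log2 scale (adjusted p = 0.011), but its other probe sets were higher by 0.53 and 0.23 and the mean of all was 0.14 higher.

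PLPP2, a related phosphatase, rose by 0.38 (adjusted p = 0.0192), a call lost without vehicle replicate 2 (adjusted p = 0.0569), without 16 h replicate 3 (0.0717) or with quantile normalisation (0.0665). DGAT2, the other enzyme that makes triacylglycerol, had a mean log2 signal of 3.13 on vehicle and on 16 h arrays (adjusted p = 0.988). Neither DGAT enzyme thus passed the threshold at 16 h.

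Lipid droplet proteins other than PLIN2 went both ways, with 2 of 10 risen and 4 fallen at 16 h (list median -0.05). PLIN3, another perilipin, fell by 0.39 on the log2 scale (adjusted p = 0.0214), and HILPDA, an inhibitor of the lipase PNPLA2, by 0.37 (adjusted p = 0.00996; -0.95 by its other probe set). CIDEB, a droplet protein of the CIDE family, fell by 0.37 (adjusted p = 0.0239). CIDEC, of the same family, rose by 0.36 (adjusted p = 0.0279) although 16 h and vehicle arrays overlapped. RAB18, a small GTPase of droplets, rose by 0.27 between 6 h and 16 h (adjusted p = 0.0153).

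Some of these droplet calls rested on single arrays, and those of PLIN3 (adjusted p = 0.0552), CIDEB (0.0526) and CIDEC (0.0576) were also lost in a fit of the 2 compared groups alone. PLIN3 was lost without vehicle replicate 2 (adjusted p = 0.0747) or 3 (0.0757) or 16 h replicate 1 (0.0786), and CIDEB without vehicle replicate 1 (0.0753) or 2 (0.0573) or 16 h replicate 2 (0.0965) or 3 (0.0509). CIDEC was lost without vehicle replicate 1 (adjusted p = 0.102) or 3 (0.092) or 16 h replicate 1 (0.0824) or 3 (0.101), and with quantile normalisation (0.143) or median centring (0.105). For RAB18 between 6 h and 16 h the call was lost without 6 h replicate 3 (adjusted p = 0.0573) or 16 h replicate 3 (0.0592), or with median centring (0.13). The sign of this RAB18 difference turned where _s_at and _x_at probe sets were avoided (-0.24).

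Triacylglycerol breakdown had 2 of 6 genes risen and 2 fallen at 16 h (list median -0.15). MGLL, which splits monoacylglycerol, rose by 0.44 (adjusted p = 0.00387), and ABHD5, the coactivator of PNPLA2, by 0.30 (adjusted p = 0.0161). Second probe sets above background on all 12 arrays gave 0.90 for MGLL, and 1.10 and 0.24 for ABHD5. PNPLA2, the lipase that starts triacylglycerol breakdown, fell by 0.28 on the log2 scale (adjusted p = 0.00519), from 5.52, 5.45 and 5.47 to 5.18, 5.22 and 5.19. DDHD2, a lipase of brain triacylglycerol, fell by 0.23 (adjusted p = 0.0219). ABHD5 lost its call without vehicle replicate 1 (adjusted p = 0.0586) or 16 h replicate 2 (0.0616) or 3 (0.0541) or with median centring (0.0636), and DDHD2 without vehicle replicate 1 (0.0765) or 2 (0.0718) or 16 h replicate 2 (0.0727) or with the 2 compared groups alone (0.0536).

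In the phospholipid branch, 3 of 24 genes rose and 3 fell at 16 h (list median -0.02). PCYT1A, the rate-limiting enzyme of phosphatidylcholine synthesis, rose from 6.78, 6.92 and 6.89 to 7.52, 7.51 and 7.61, by 0.68 (SE 0.09, 1.61-fold, adjusted p = 7.16e-05). ETNK1, an ethanolamine kinase, rose by 0.33 (adjusted p = 0.0146), a call lost without vehicle replicate 1 (0.0583) or 16 h replicate 2 (0.0652). PEMT, which methylates phosphatidylethanolamine, fell by 0.38 (adjusted p = 0.00987) and CHPT1, a cholinephosphotransferase, by 0.34 (adjusted p = 0.00204). Between 6 h and 16 h, CDS2, which turns phosphatidate into CDP-diacylglycerol, fell by 0.45 (adjusted p = 0.000195), and TAMM41, which does so in mitochondria, rose by 0.42 (adjusted p = 0.0197). The 6 h and 16 h arrays of TAMM41 overlapped. Its call was lost without 6 h replicate 1 (adjusted p = 0.0815) or 16 h replicate 3 (0.084), or with the 2 compared groups alone (0.0621). The CDS2 call was lost with probe sets averaged per gene (0.188) or where _s_at and _x_at probe sets were avoided (0.855, log2 difference -0.026). CHPT1 lost its 16 h call where _s_at and _x_at probe sets were avoided (adjusted p = 0.321).

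Of 11 regulators of lipid genes and their known targets, 3 rose and 3 fell at 16 h (list median 0.05). SREBF1, which encodes a transcription factor of fatty acid and triacylglycerol synthesis, fell from 5.70, 5.38 and 5.47 to 4.52, 3.59 and 3.93, by 1.51 on the log2 scale (SE 0.18, 2.84-fold, adjusted p = 5.4e-05). NR1H3, the oxysterol receptor LXR alpha, fell by 0.59 (adjusted p = 0.00274), from 6.13, 6.11 and 6.10 to 5.32, 5.49 and 5.77. PDK4, a kinase that restrains pyruvate oxidation and is a PPAR target, rose by 0.76 (SE 0.07, 1.69-fold, adjusted p = 9.96e-06). RXRB, a partner of these receptors, rose by 0.39 between 6 h and 16 h (adjusted p = 0.00166; 0.271 with probe sets averaged per gene). For SREBF1 and NR1H3 the 16 h arrays lay below all vehicle arrays, where 51.5% of all genes tested did not overlap in either direction.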

How the data were processed

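The log2 values that the authors deposited cover 54675 probe sets of the Affymetrix U133 Plus 2.0 array, made with GCRMA, of unstated version, per the submitters' processing notes. GCRMA corrects background by probe sequence, normalises between arrays and summarises probes; a shift shared by most genes would not show. Per the labels' protocols, RNA was amplified from the 3' end. The genome build is not given in the sources used here. Symbols came from the platform annotation (41097 probe sets with 1 symbol, 1801 with several, 11777 with none).

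A gene took the values of its probe set of highest mean signal, and genes with a mean of at least 2.11, the median over probe sets, were tested. One limma 3.58.1 model (R 4.3.3) of all 12 arrays with 4 groups gave two-sided p-values with Benjamini-Hochberg adjustment over 12635 genes (8 residual and 3.69 prior degrees of freedom) and was tested on simulated data. Errors are the SE of the model or the SD of 3 arrays; folds are 2 to the log2 difference. SEs of second probe sets come from the same model over all probe sets. Background is the highest of 27 unspiked bacterial control probe sets per array, on average 2.14 on vehicle arrays; the number of arrays limits the precision. Members and lists were chosen with earlier results of these data known. Named were all members, up to 4 changed genes with the largest changes per list and comparison, and the 3 genes most like GPAT3, LPIN1 and PLIN2; DGAT2, ACSL1, FOS and the markers were added for context. The 10 pathway genes with no matched probe set were not analysed here. Replicate numbers were checked as pairs by correlating the arrays' deviations from group means. The 18 same-numbered pairs gave correlations from -0.005 to 0.235, 5 of them above 0.1, and 9 of the 12 arrays correlated best with their own number. Whether same-numbered arrays share an origin was not tested. The main fit did not treat them as pairs, and a fit with the replicate number as a block is given below.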

Additional observations from a re-analysis of the deposited data

Results flagged for a closer look

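For the pathway genes named at 16 h, the difference between the 16 h and the 6 h change was tested in the limma fit. Benjamini-Hochberg adjustment was over all genes, of which 42.7% passed in either direction. The genes were named because they had passed at 16 h against vehicle. Both comparisons use the same 16 h arrays, so a pass here is not separate support. The difference did not pass the threshold for MGLL (adjusted p = 0.627), CIDEC (0.104) and PEMT (0.0642). Positive log2 differences (16 h above 6 h) that passed were found for PLPP3 (1.74), PDK4 (0.64), ABHD5 (0.62), PCYT1A (0.59), LPGAT1 (0.58), SLC27A2 (0.53), ETNK1 (0.48) and PLPP2 (0.44). Negative ones that passed were found for SREBF1 (-1.54), SLC27A3 (-0.90), NR1H3 (-0.83), CIDEB (-0.51), SLC27A5 (-0.50), SOAT1 (-0.43), PLIN3 (-0.39), PNPLA2 (-0.38), HILPDA (-0.35), ANGPTL4 (-0.32), CHPT1 (-0.29) and DDHD2 (-0.21). Outside the genes named at 16 h, RXRB (0.39), CNEP1R1 (0.38), CDIPT (0.32), RAB18 (0.27), CDS2 (-0.45) and GPAT2 (-0.29) also passed both at 16 h and between 6 h and 16 h. Between 6 h and 16 h, PLIN3 did not pass without 6 h replicate 2 (adjusted p = 0.0612) or 3 (0.061) or 16 h replicate 1 (0.0818), HILPDA without 16 h replicate 2 (0.0544), and ANGPTL4 without 6 h replicate 3 (0.123) or 16 h replicate 2 (0.125) or with the 2 compared groups alone (0.0512). DDHD2 did not pass without 6 h replicate 2 (adjusted p = 0.113) or 3 (0.105) or 16 h replicate 2 (0.0992) or 3 (0.0654), or without the filter on low signal (0.0586) or with the 2 compared groups alone (0.0716). CHPT1 did not pass with probe sets averaged per gene (adjusted p = 0.0606) or where _s_at and _x_at probe sets were avoided (0.6), and SOAT1 with probe sets averaged (0.201).

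For 3 members, all arrays of one time lay above and all arrays of another below the vehicle mean. The share of all genes with this pattern was not counted, so it is not read as particular to these members. The differences between times are descriptions, given with no p. In the fit over all genes, AGPAT5 and LPIN1 passed the threshold between 6 h and 16 h and GPAT4 did not between 4 h and 6 h, while 16 h minus 4 h was not tested. GPAT4 was below the vehicle mean at 4 h and above it at 6 h and 16 h, with log2 differences of 0.33 (6 h minus 4 h) and 0.69 (16 h minus 4 h). AGPAT5 was below that mean at 6 h and above it at 16 h (0.38). By the probe set used for the gene, LPIN1 was above the vehicle mean at 4 h and 6 h and below it at 16 h. Its differences were -0.42 (16 h minus 4 h) and -0.24 (16 h minus 6 h). The 6 h arrays of GPAT4 and AGPAT5 and the 16 h arrays of LPIN1 overlapped the vehicle arrays, and LPIN1 at 16 h differed from vehicle by -0.05.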

How the results depend on the processing

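Over 21 alternatives, the changes of members that had passed the threshold against vehicle kept their direction (GPAT3 from 4.13 to 4.47 at 16 h); small changes of other members, such as GPAM at 4 h, turned sign. The count of members past the threshold at 4 h went from 1 to 0 without the filter on low signal, with probe sets averaged per gene, and with the 2 compared groups alone; the pathway count at 4 h was 0 with the 75th percentile filter, which left ANGPTL4 out. The cause of the others was not tested. Leaving out 1 array gave 0 to 1 members at 4 h, 0 to 0 at 6 h and 5 to 6 at 16 h, and 0 to 1 pathway genes at 4 h, 0 to 1 at 6 h (1 without vehicle replicate 2), 22 to 34 at 16 h and 24 to 31 between 6 h and 16 h. With the mean of probe sets SOAT1 was higher by 0.14 at 16 h and 0.13 between 6 h and 16 h; where _s_at and _x_at probe sets were avoided RAB18 was -0.19 and -0.24, and CDS2 was 0.070 at 16 h. Median centring gave 10 pathway rises and 20 falls at 16 h, and quantile normalisation 14 and 20 between 6 h and 16 h. With the replicate number as a block, 5 members and 35 pathway genes passed at 16 h and 30 between 6 h and 16 h; 9 of the 12 arrays correlated best with their own number. Over all genes, the 4 h count of 58 became 136 with a trended, robust prior and the 6 h count of 4 became 63. Signals near the background controls (AGPAT2, PLIN2, DGAT2, CIDEC, CIDEB and PLPP2 among them) limit what small differences can show.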
